A study of Mus musculus with 28 samples.

Results

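The genes described here handle iron, zinc and related metals in the intestinal epithelium. They were taken by gene name from both organoid tables, and all 10 were found in each: Slc11a2, Cybrd1, Slc40a1, Heph, Fth1, Tfrc, Mt1, Mt2, Slc39a4 and Slc30a10. They are 10 of the 29413 genes of the BMP table and 10 of the 55416 genes of the TGFb table, the 2 tables of organoids. Expression was measured by mRNA sequencing in small-intestinal organoids, epithelial structures that grow from isolated crypts, of wild-type C57BL/6 mice. The BMP table holds 4 untreated control samples, 4 samples given BMP2, and 3 samples for each of the ligands BMP3, BMP4, BMP5 and BMP7. A separate table, here called the TGFb table, holds 3 untreated control and 3 Tgfb-treated samples. Each ligand was given alone at 500 ng/ml for 24 h, after a first 48 h of culture with neither BMP nor Tgfb added. The medium of that first period, ENR, is named for EGF, Noggin and R-spondin, and Noggin binds BMPs; the labels used here do not say whether it was present with the ligands. The labels do not say whether samples of a group came from separate animals or cultures, so p-values measure the spread between these samples, which may be technical.

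Iron reaches the enterocyte from the gut lumen. Cybrd1 (duodenal cytochrome b) helps to reduce ferric iron at the apical membrane, Slc11a2 (DMT1) carries ferrous iron inward, ferritin stores it, and Slc40a1 (ferroportin) exports it across the basolateral membrane with the oxidase hephaestin (Heph), a copper enzyme. Tfrc, the transferrin receptor, takes up iron from the blood side and is most typical of dividing crypt cells. Zinc enters from the lumen through Slc39a4 (ZIP4) and is buffered by the metallothioneins Mt1 and Mt2, and Slc30a10 exports manganese. When iron is scarce, the iron regulatory proteins bind a hairpin, the iron-responsive element. In the 5' untranslated region this binding blocks translation, and in the 3' untranslated region of Tfrc it stabilises the mRNA.

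The iron-responsive elements that a strict search found in the members are shown, since this system acts on transcripts that hold one. Transcripts (GENCODE M21, GRCm38) were searched for C, 5 bases, a loop of CAGTG and any base but G, and 5 bases that pair with the first 5, with G-T pairs allowed. The capitals mark the 6 loop bases in 27-base windows, written as DNA 5' to 3'. Ftl1, the ferritin light chain, is added as the partner of the heavy chain Fth1.
Fth1, 5' UTR, chr19:9982733-9982759 (+): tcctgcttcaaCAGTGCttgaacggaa
Ftl1, 5' UTR, chr7:45459780-45459806 (-): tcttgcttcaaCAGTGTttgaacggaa
Slc40a1, 5' UTR, chr1:45925466-45925492 (-): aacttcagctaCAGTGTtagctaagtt
Tfrc, 3' UTR, chr16:32631220-32631246 (+): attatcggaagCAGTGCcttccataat
Tfrc, 3' UTR, chr16:32631599-32631625 (+): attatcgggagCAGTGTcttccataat
Tfrc, 3' UTR, chr16:32631664-32631690 (+): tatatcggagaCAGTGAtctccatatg
Tfrc, 3' UTR, chr16:32631711-32631737 (+): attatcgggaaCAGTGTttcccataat
Of the 10 members, 3 held a match, and Tfrc held 4 sites. Over all protein-coding genes, 222 of 21901 (1.01%) held a match in any transcript. The other members have no stretch with exactly these letters and pairs, which says nothing about looser forms of the element. A member without a match here may still hold an element that this system reads.

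Mt1 and Mt2 lie next to each other, and their promoters hold metal response elements, the sites of the zinc-sensing factor Mtf1. The motif TGCACNC or TGCGCNC was searched on both strands. In both genes the annotated first exon (GENCODE M21, GRCm38) begins upstream of a TATAAA box, so the elements were counted between the exon's first base and that box. There were 4 in the 128 bases of Mt1 and 3 in the 89 bases of Mt2. Of the first 128 bases of 1 transcript per protein-coding gene, 14.8% held at least 1 element and 0.0504% held 4 or more. Of the first 89 bases, 10.9% held at least 1 and 0.192% held 3 or more. These shares are for the start of annotated transcripts, whereas the counted bases of Mt1 and Mt2 lie upstream of a TATAAA box. In the longer window of 250 bases before annotated starts, 0.285% of promoters held 4 or more. The element nearest the box is shown for each gene in capitals, 16 and 17 bases from it.
Mt1, chr8:94179177-94179203 (+): gcaaacccttTGCGCCCggactcgtcc
Mt2, chr8:94172719-94172745 (+): gcggagctttTGCGCTCgacccaatac
The RefSeq promoter table (GRCm38.p6) holds 6 of the 10 members. In the 250 bases before the annotated start, Slc30a10 held 3 metal response elements, of which 2 overlap. Tfrc held 2 overlapping ones at its upstream start and none at its downstream start. Of all 27025 promoters, counted at 1 start per gene, 21.3% held at least 1 and 5.19% held 2 or more. Mt2 held 3 and Mt1 held 1 in that window, and Cybrd1 and Fth1 held none. The hypoxia response core ACGTG, found in 16.6% of promoters, occurred once each in Mt1, Slc30a10 and the downstream start of Tfrc. The Smad motif GGCGCC, found in 9.54%, occurred once each in Cybrd1 and Tfrc.

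The BMP table gives normalized counts, where each sample's counts were divided by its own size factor, from 21.4 to 24.8 M recovered reads per sample. The values of the TGFb table were read as TPM, which keeps no depth. Epithelial markers were present in every sample of both tables (summed level of the 6 markers 106620 to 762240 normalized counts in the BMP table). The summed erythroid list was at most 2.28 normalized counts, the mesenchymal list at most 54.18 and the leukocyte list at most 156.64, the last 2 highest with BMP2. The endothelial list was higher, at 557 to 1030, although its gene Cdh5 had no counts in the control, BMP4 and BMP5 groups. The hepatocyte list ranged from 55.3 with BMP2 to 676.18 with BMP4. Cell-type markers moved with the ligands. The 7 enterocyte markers summed to 49260 to 93790 normalized counts in controls, 86370 to 165530 with BMP2 and 405900 to 461600 with BMP4. With BMP4 7 of 7 rose, while with BMP2 2 rose and 2 fell, and Krt20, a mean of 2088 in controls and 63525 with BMP2, carried most of the higher sum. The 4 crypt stem markers summed to 95738 to 120015 in controls, 135 to 678 with BMP2 and 1779 to 3475 with BMP4, and the 2 cycling markers to 16560 to 26200, 296 to 953 and 4920 to 7340. In bulk samples, fewer cells of a type and less RNA per cell cannot be told apart, and the part of these markers in the results below was not tested. The sum of normalized counts was 19.3 to 20.5 M in controls and 25.6 to 29.0 M with BMP2 or BMP4. Scaling every sample to the same total instead moved the median gene by -0.46 (log2) with BMP2 and -0.40 with BMP4, and the genes called higher and lower then split 3601 to 7820 (against 5420 to 5657) and 3080 to 6896 (against 4964 to 4633). The split for BMP5 was 2429 to 1455, and 2397 to 2413 after quantile normalization; for BMP7 it was 2833 to 1940, 2575 to 2731 at the same total and 2716 to 2938 after quantile normalization.

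BMP4 raised 7 of the 10 genes and lowered none, whereas BMP2 lowered 7 and raised 3. A gene was called where the adjusted p of limma over all genes tested was under 0.05. With BMP4, 65.1% of all 14746 genes tested were called (33.7% higher and 31.4% lower), so 7 of 10 members called is near the background, while 7 of 10 higher stands beside 33.7% of all genes. With BMP2, 75.1% of genes were called (36.8% higher, 38.4% lower), and all 10 members were. BMP7 changed 5 members, 2 higher and 3 lower (background 32.4%, 19.2% higher and 13.2% lower). BMP5 changed 2, both higher (background 26.3%, 16.5% higher and 9.87% lower). With the replicate number as a block, which the data pair for BMP5, 5 members were called with BMP5, 2 higher and 3 lower. Over all genes, 3884 were called with BMP5 without the block, and 3419 to 5738 under the alternatives other than leaving out a sample. That range includes the block but also other filters and scalings. The 5 members called with the block therefore have no share of all genes from the same fit beside them here. With BMP3 limma called none of the members and 0% of all genes. At an unadjusted p under 0.05 there were 0 members and 110 genes, and edgeR and DESeq2 called 0 members; the log2 fold changes of the members lay between -0.13 and 0.20. Over the members the median log2 fold change was 2.05 for BMP4 and -0.96 for BMP2, beside 0.04 and -0.03 over all genes tested, and -0.26 for BMP5 and -0.02 for BMP7, beside -0.03 and -0.05. These comparisons share the same 4 controls. All 10 members differed among the 5 BMP ligands by limma's F-test, as did 84.1% of all genes. For Cybrd1 that call was lost without BMP3 replicate IV (adjusted p = 0.0537) or BMP4 replicate II (0.05) or III (0.073), at the same total in every sample (0.071) and after quantile normalization (0.122), and for Mt2 without BMP3 replicate II (0.0633) or IV (0.0507).

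**Figure D1:**
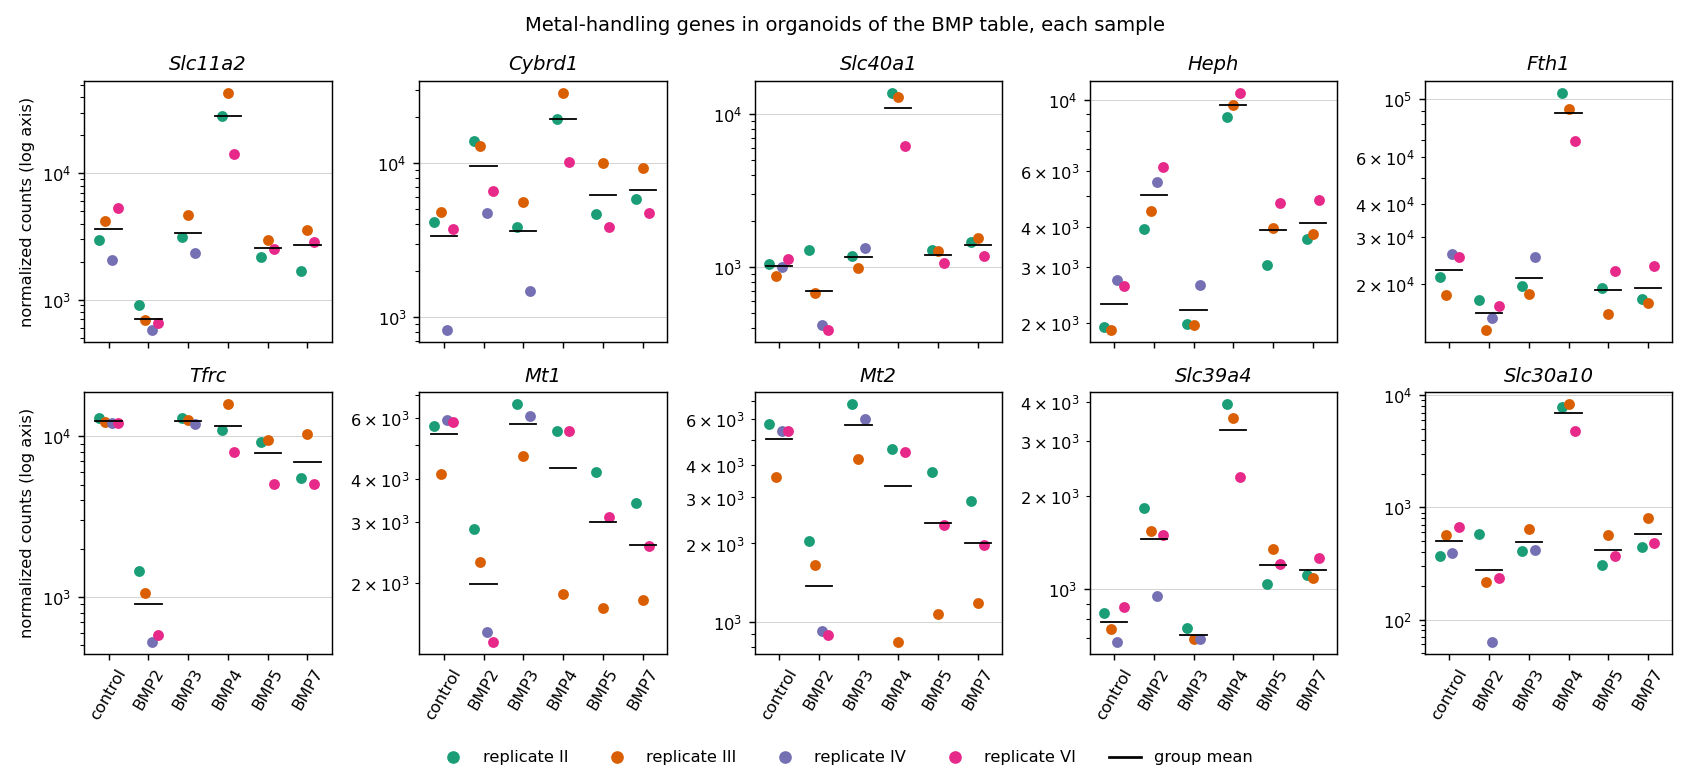
Normalized counts (log axis) of each of the 10 metal-handling genes in every sample of the BMP table, by group, with points coloured by replicate number and black lines at group means. Slc11a2, Slc40a1, Fth1 and Slc30a10 stand apart in the BMP4 samples, Tfrc in the BMP2 samples, and replicate III is low for Mt1 and Mt2 in every group that has it except BMP2.

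**Figure D2:**
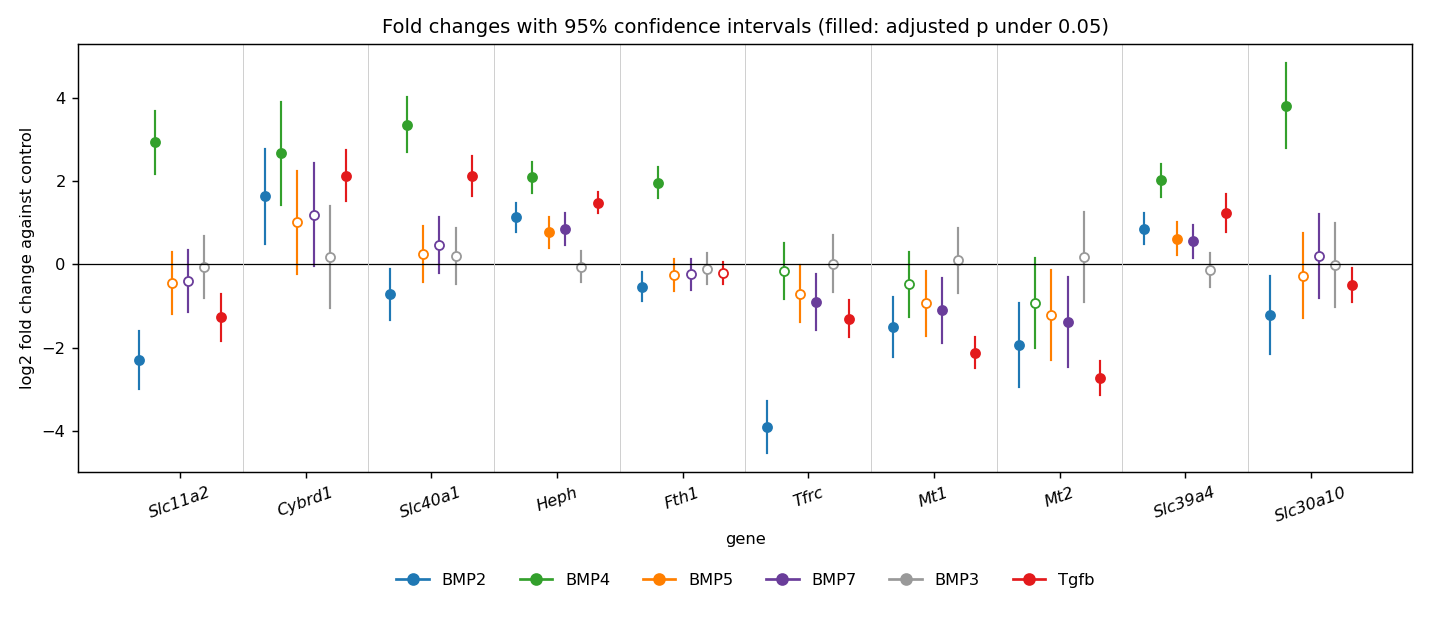
Log2 fold change against the controls of the same table for each gene and ligand, with 95% confidence intervals; filled points have an adjusted p under 0.05. The BMP4 values are above 0 for 7 genes with filled points, and BMP2 and Tgfb values lie on the same side of 0 for each gene except Slc40a1.

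Slc11a2 (ENSMUSG00000023030), the apical ferrous iron carrier, moved in opposite directions with BMP4 and BMP2. The controls read 2960, 4170, 2080 and 5360 normalized counts. The BMP4 samples read 28500, 43400 and 14200, and the BMP2 samples 904, 691, 573 and 652. Neither group overlapped the controls, with BMP4 above and BMP2 below. Its log2 fold change was 2.92 ± 0.35 (SE; adjusted p = 8.81e-07) with BMP4 and -2.30 ± 0.33 (adjusted p = 3.9e-06) with BMP2. The BMP3, BMP5 and BMP7 samples, from 1700 to 4690, overlapped the controls; for BMP5 and BMP7 the 95% intervals of the log2 fold change ran from -1.18 to 0.31 and from -1.15 to 0.34.

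Cybrd1 (ENSMUSG00000027015), the ferric reductase partner of Slc11a2, was higher under both BMP2 and BMP4. The controls read 4120, 4830, 821 and 3740 normalized counts, and the low value was replicate IV. The BMP2 samples read 14000, 12900, 4720 and 6560, and the BMP4 samples 19300, 28600 and 10200. BMP4 lay above every control, while the lowest BMP2 sample, also replicate IV, lay below the highest control. Its log2 fold change was 2.67 ± 0.59 (adjusted p = 0.000591) with BMP4 and 1.63 ± 0.54 (adjusted p = 0.0114) with BMP2. Without control replicate IV these became 2.08 with BMP4, which stayed past the threshold, and 1.04 with BMP2 (adjusted p = 0.0563), which did not. The BMP2 call was also lost with the same total in every sample (adjusted p = 0.06) and after quantile normalization (adjusted p = 0.0885). BMP5 gave 1.01 (95% interval -0.22 to 2.25) and BMP7 1.19 (-0.04 to 2.43). Without control replicate IV these were 0.43 and 0.60, and BMP5 was 0.60 without BMP5 replicate III. With the replicate block, BMP7 became 0.78 (adjusted p = 0.0146).

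Slc40a1 (ENSMUSG00000025993), the iron exporter, carries the 5' hairpin shown above. It read 1050, 875, 1010 and 1130 normalized counts in controls, 13800, 12900 and 6240 with BMP4, and 1290, 683, 418 and 387 with BMP2. Every BMP4 sample lay above every control, and the BMP2 samples overlapped them. The log2 fold change with BMP4 was 3.35 ± 0.32 (adjusted p = 3.93e-08), a 10.2-fold rise. With BMP2 it was -0.72 ± 0.29 (adjusted p = 0.0336). That BMP2 call was lost without BMP2 replicate VI (adjusted p = 0.134) or IV (0.122), or without control replicate II (0.0615), VI (0.0735) or IV (0.0552). It was also lost in a fit of only the groups compared (0.0628), with edgeR (0.0838) and with DESeq2 (0.0907). BMP5 samples read 1070 to 1290 and BMP7 samples 1190 to 1550; their log2 fold changes were 0.25 (-0.41 to 0.92) and 0.46 (-0.20 to 1.13), the latter past the threshold in a fit of only the groups compared (adjusted p = 0.0159).

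Heph (ENSMUSG00000031209), the copper oxidase that acts with ferroportin, rose with 4 of the 5 BMPs. Controls read 1940, 1900, 2720 and 2620 normalized counts, BMP2 samples 3950, 4490, 5510 and 6170, and BMP4 samples 8840, 9610 and 10500. BMP5 gave 3040, 3970 and 4740, and BMP7 gave 3670, 3810 and 4850. None of these groups overlapped the controls, and the BMP3 samples (1980 to 2630) did. The log2 fold changes were 2.09 ± 0.18 with BMP4 (adjusted p = 1.35e-08), 1.13 ± 0.17 with BMP2 (5.88e-06), 0.85 ± 0.18 with BMP7 (0.00135) and 0.77 ± 0.18 with BMP5 (0.00387). These 4 calls held under every alternative run.

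Fth1 (ENSMUSG00000024661) encodes the ferritin heavy chain, which oxidises and stores iron. Controls read 21200, 18200, 26000 and 25300 normalized counts, and BMP4 samples 105000, 91500 and 68900. BMP2 samples read 17400, 13400, 14900 and 16500, just below the lowest control. The change (log2) was 1.96 ± 0.18 with BMP4 (adjusted p = 2.7e-08) and -0.54 ± 0.17 with BMP2 (adjusted p = 0.00684). With BMP5 (15400 to 22500) and BMP7 (17000 to 23300) it was -0.25 (-0.63 to 0.12) and -0.24 (-0.61 to 0.14). The light chain Ftl1 gave 0.88 ± 0.11 with BMP4 (adjusted p = 1.76e-06) and 1.00 ± 0.10 with BMP2 (6.48e-08), so the 2 ferritin chains moved in opposite directions with BMP2. Both ferritin genes have near-identical processed pseudogenes, and how reads were divided among such copies was not tested.

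Tfrc (ENSMUSG00000022797), the transferrin receptor, showed the largest fall among the members. Controls read 12900, 12300, 12100 and 12100 normalized counts, and BMP2 samples 1450, 1060, 527 and 582. This was a log2 fold change of -3.90 ± 0.30 (adjusted p = 8.37e-10), with no overlap. BMP4 samples read 10900, 15800 and 7930, on both sides of the controls, with a log2 fold change of -0.15 (-0.83 to 0.52). The 2 ligands thus differed for this gene, and BMP2 was lower than BMP4 by a log2 fold change of -3.74 ± 0.32 (adjusted p = 7.65e-09). Both cycling markers and all 4 stem markers were lower than in controls with each of the 2 ligands. Between the ligands, both cycling markers and 3 of the 4 stem markers were lower with BMP2 and 1 was higher.

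BMP7 and BMP5 gave smaller values for Tfrc. BMP7 samples read 5510, 10300 and 5040, all below the controls, with a log2 fold change of -0.91 ± 0.32 (adjusted p = 0.0382). BMP5 samples read 9200, 9440 and 5060, also all below the controls, with -0.70 ± 0.32 (adjusted p = 0.121). The stem markers summed to 21589 to 25853 normalized counts with BMP7 and 24949 to 72914 with BMP5, and the cycling markers to 11440 to 25000 and 11310 to 23900. The BMP7 call was lost without BMP7 replicate II (adjusted p = 0.143) or VI (0.167), and without control replicate II (0.069), III (0.0667), VI (0.0634) or IV (0.061). It was lost too with edgeR (0.0613) and without a filter on low values (0.0574). With the replicate number as a block, BMP5 gave -0.77 (adjusted p = 0.0193), and a fit of only the groups compared also called it (0.0329).

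The ratio of Tfrc to Fth1 within a sample does not depend on how the table was scaled; only its difference between groups is read here, since gene length enters its level. Its log2 values were -0.72, -0.57, -1.10 and -1.06 in controls, -3.58, -3.66, -4.82 and -4.83 with BMP2, and -3.27, -2.53 and -3.12 with BMP4. Both ligand groups lay below every control, by -3.36 with BMP2 and -2.11 with BMP4 (exact permutation p = 0.0286 each, two-sided, the smallest these groups allow). Over the 18 ratio tests, the adjusted p was 0.0857, so neither passed correction. With BMP2 the numerator fell 14.9-fold and with BMP4 the denominator rose 3.88-fold. For BMP5 (-0.45, exact p = 0.429), BMP7 (-0.67, exact p = 0.114) and BMP3 (0.12, exact p = 0.657) the values overlapped the controls.

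**Figure D3:**
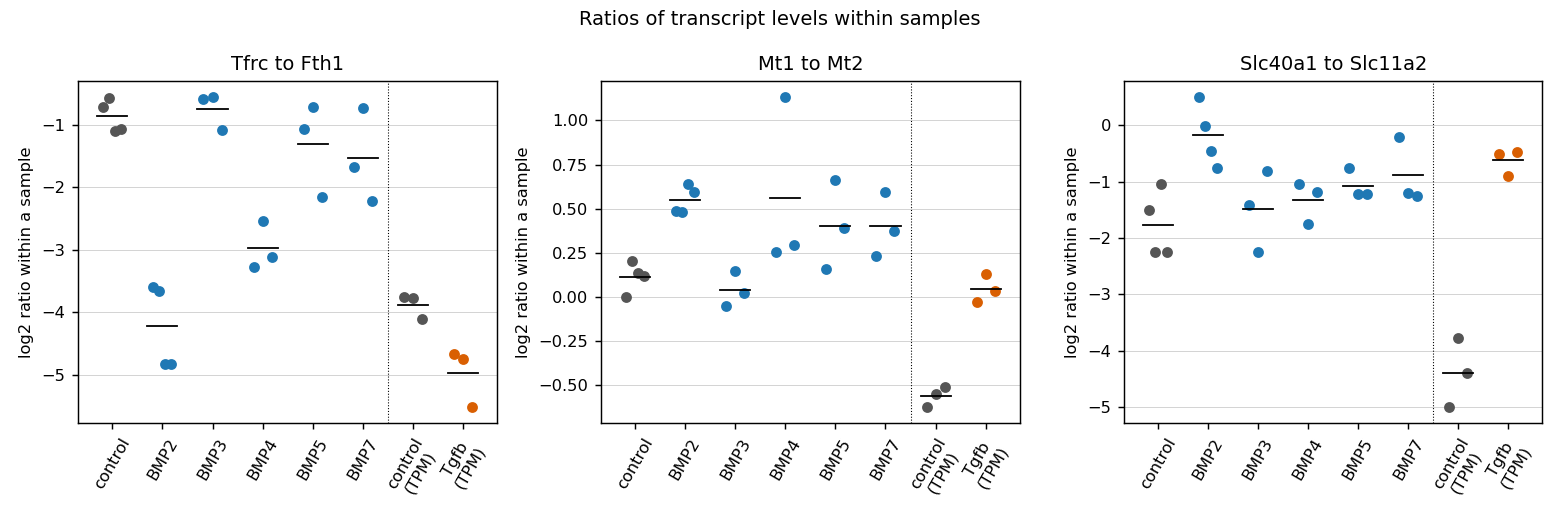
Log2 ratios of Tfrc to Fth1, Mt1 to Mt2 and Slc40a1 to Slc11a2 within each sample, with group means as black lines; the dotted line divides samples given in normalized counts from those in TPM, whose levels cannot be set side by side. BMP2 and BMP4 lie below the controls for Tfrc to Fth1, and the Tgfb samples lie apart from their own controls in all 3 panels.

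The ratio of exporter to importer, Slc40a1 to Slc11a2, was -1.50, -2.25, -1.04 and -2.25 (log2) in controls and 0.51, -0.02, -0.46 and -0.75 with BMP2. BMP2 lay above every control, by 1.58 (exact permutation p = 0.0286; adjusted 0.0857). With BMP4 both genes rose, and their ratio, -1.05, -1.75 and -1.19, overlapped the controls, with a difference of 0.43 (exact p = 0.4).

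Mt1 (ENSMUSG00000031765) and Mt2 (ENSMUSG00000031762), the metal-binding metallothioneins, fell with BMP2. Mt1 read 5700, 4120, 5920 and 5850 normalized counts in controls and 2860, 2300, 1440 and 1350 with BMP2. Mt2 read 5710, 3580, 5400 and 5390 in controls and 2040, 1650, 926 and 895 with BMP2. Neither gene's BMP2 samples overlapped the controls. The log2 fold change was -1.50 ± 0.34 for Mt1 (adjusted p = 0.00062) and -1.93 ± 0.48 for Mt2 (adjusted p = 0.00122). Both calls held under every alternative run.

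With the other ligands, replicate III set much of the spread of both genes. In BMP4 samples, replicates II, III and VI of Mt1 read 5490, 1850 and 5510, and those of Mt2 read 4610, 842 and 4490. The same replicate number was lowest in the controls, in BMP3 (4650 against 6070 and 6570 for Mt1), in BMP5 (1690 against 3090 and 4190) and in BMP7 (1780 against 2550 and 3400). BMP2 was the exception, where replicate III was not the lowest. The labels tie no further property to replicate III.

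**Figure D4:**
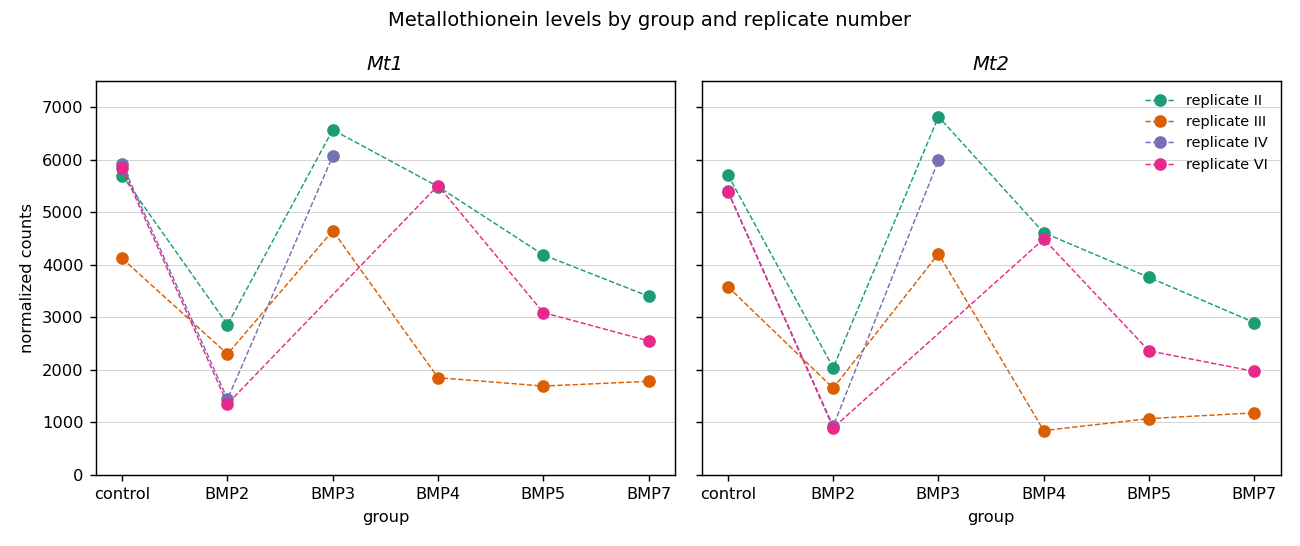
Normalized counts of Mt1 and Mt2 by group, with the samples of each replicate number joined by a dashed line. Replicate III is the lowest sample of the control, BMP3, BMP4, BMP5 and BMP7 groups for both genes, and the lines of replicates II and VI stay near the controls with BMP4.

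The BMP4 log2 fold changes were -0.48 (-1.26 to 0.29) for Mt1 and -0.93 (-2.01 to 0.15; adjusted p = 0.122) for Mt2. With the replicate block, Mt2 gave -0.96 (adjusted p = 0.0335), and it also passed without BMP4 replicate II (adjusted p = 0.0465). Without BMP4 replicate III it was -0.12, and Mt1 was 0.04. At the same total in every sample, and after quantile normalization, both genes passed with BMP4, at adjusted p = 0.0407 and 0.0273 for Mt1 and 0.0281 and 0.0246 for Mt2. With BMP5, Mt1 gave -0.93 (adjusted p = 0.0705) and Mt2 -1.22 (adjusted p = 0.0889). Under the replicate block these became -0.95 (adjusted p = 0.0139) and -1.25 (adjusted p = 0.0168), and without BMP5 replicate II they passed as well (0.0296 and 0.0359), whereas without BMP5 replicate III they were -0.57 (0.354) and -0.73 (0.403). They also passed after quantile normalization (0.0272 and 0.0396) and in a fit of only the groups compared (0.0359 and 0.0383), and Mt1 with DESeq2 (0.0467). With Tfrc, the block thus raised the members called with BMP5 from 2 to 5, to be read beside the range over all genes given above.

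With BMP7, Mt1 fell by a log2 fold change of -1.10 ± 0.37 (adjusted p = 0.0287) and Mt2 by -1.39 ± 0.51 (adjusted p = 0.0462). No BMP7 sample of either gene reached a control. The Mt1 call was lost without BMP7 replicate III (adjusted p = 0.122) or VI (0.0681) and without control replicate II (0.0556), VI (0.0607) or IV (0.0597). The Mt2 call was lost without the same libraries, at adjusted p = 0.175, 0.0962, 0.0882, 0.0862 and 0.0831, and without a filter on low values (0.0679).

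The 2 metallothioneins followed each other closely, with a Pearson r of 0.989 over the 20 samples, which include the treatment differences, and no other gene was nearer to either of them. Reads of such near copies can be divided between them by estimation. Their ratio was not the same in every group: the log2 ratio of Mt1 to Mt2 was 0.00 to 0.20 in controls and 0.48 to 0.64 with BMP2. The difference was 0.44 with BMP2, 0.45 with BMP4 and 0.29 with BMP7 (exact permutation p = 0.0286 each; adjusted 0.0857), none of which passed correction. BMP5 gave 0.29 (exact p = 0.0571). Replicate III had the highest ratio in the BMP4, BMP5 and BMP7 groups, and without it in the ligand group the difference was 0.16 with BMP4 (exact p = 0.133), 0.16 with BMP5 (0.2) and 0.19 with BMP7 (0.0667).

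Slc39a4 (ENSMUSG00000063354), the luminal zinc importer, rose with BMP2, BMP4, BMP5 and BMP7. Controls read 840, 745, 679 and 878 normalized counts, BMP2 samples 1820, 1540, 950 and 1500, and BMP4 samples 3930, 3560 and 2290. BMP5 gave 1040, 1350 and 1210 and BMP7 gave 1110, 1090 and 1260. All 4 groups lay above every control, and the BMP3 samples (693 to 750) lay among them. The log2 fold change was 2.02 ± 0.19 with BMP4 (adjusted p = 3.57e-08) and 0.85 ± 0.18 with BMP2 (0.000225). With BMP5 it was 0.61 ± 0.19 (adjusted p = 0.023) and with BMP7 0.56 ± 0.19 (0.0304). The BMP5 call was lost without BMP5 replicate III (adjusted p = 0.112) or VI (0.0711) and without control replicate III (0.0525) or IV (0.0624). The BMP7 call was lost without BMP7 replicate II (0.0647) or VI (0.113) and without control replicate III (0.0655) or IV (0.0788).

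Slc30a10 (ENSMUSG00000026614), the manganese exporter, had the largest rise among the members. Controls read 368, 565, 395 and 665 normalized counts and BMP4 samples 7830, 8300 and 4790. The log2 fold change was 3.81 ± 0.48 (adjusted p = 1.49e-06) with no overlap. BMP2 samples read 584, 217, 63.5 and 233 and overlapped the controls, with -1.21 ± 0.45 (adjusted p = 0.0203). The BMP2 call was lost without BMP2 replicate IV (-0.64, adjusted p = 0.0965) or control replicate VI (0.0596), after quantile normalization (0.0629), in a fit of only the groups compared (0.0597), with edgeR (0.0648) and with DESeq2 (0.09). BMP5 and BMP7 samples (308 to 796) overlapped the controls.

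Among the BMP4 samples, replicate VI was the lowest for Slc11a2, Cybrd1, Slc40a1, Fth1, Tfrc, Slc39a4 and Slc30a10 and the highest for Heph. Leaving it out did not change any BMP4 call against the controls. The BMP4 calls of 7 members held under every alternative run.

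Ligands were also compared with each other, at the same dose and time. BMP2 was lower than BMP4 for 8 of 10 members (background 66.8%, of which 33.4% lower). The log2 differences were -5.22 ± 0.35 for Slc11a2 (adjusted p = 3.14e-10), -5.02 ± 0.48 for Slc30a10 (3.4e-08), -4.07 ± 0.32 for Slc40a1 (1.93e-09) and -2.49 ± 0.18 for Fth1 (6.54e-10). Slc39a4 gave -1.17 ± 0.19 (2.39e-05) and Heph -0.96 ± 0.18 (0.000123). Mt1 gave -1.02 ± 0.37 (0.021), and lost the call without BMP2 replicate VI (0.0624) or IV (0.0589) or BMP4 replicate II (0.118) or VI (0.117). Cybrd1 (95% interval -2.27 to 0.19) and Mt2 (-2.08 to 0.07) did not pass. Mt2 did without BMP4 replicate III (-1.81, adjusted p = 0.00143; -0.59 without BMP4 replicate II), with edgeR (0.0321) and with DESeq2 (0.0252).

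BMP2 was lower than BMP7 for 4 of 10 members (background 62.8%, of which 31.4% lower). These were Tfrc (-2.99 ± 0.32, adjusted p = 2.55e-07), Slc11a2 (-1.89 ± 0.35, 0.000144), Slc40a1 (-1.18 ± 0.32, 0.0033) and Slc30a10 (-1.41 ± 0.48, 0.0163). The Slc30a10 call was lost without BMP2 replicate IV (0.0528) or BMP7 replicate III (0.0817), in a fit of only the groups compared (0.0585) and with DESeq2 (0.058). Slc39a4 passed only without BMP2 replicate IV (0.49, adjusted p = 0.015). Fth1 gave -0.30 (-0.68 to 0.07), and passed with the same total in every sample (-0.69) and after quantile normalization (-0.89). The genes called in this comparison split 4637 to 4625, and 2514 to 6971 with the same total in every sample.

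BMP4 was higher than BMP7 for 6 of 10 members (background 59.8%, of which 28.4% higher): Slc11a2 (3.33 ± 0.38), Slc30a10 (3.60 ± 0.52), Slc40a1 (2.89 ± 0.34), Fth1 (2.19 ± 0.19), Slc39a4 (1.46 ± 0.20) and Heph (1.24 ± 0.19), with adjusted p from 2.31e-08 to 2.15e-05. With the replicate block, Cybrd1 (1.48, adjusted p = 0.0506 without the block and 7.03e-05 with it) and Tfrc (0.75, 0.0683 and 0.0146) passed as well. Both also passed without BMP4 replicate VI (0.0273 and 0.0306) or BMP7 replicate III (0.0445 and 0.0162) and with DESeq2 (0.0141 and 0.0482), and Cybrd1 with edgeR (0.0454) and in a fit of only the groups compared (0.00897). Without BMP4 replicate III, Mt1 (1.14, adjusted p = 0.0112) and Mt2 (1.27, 0.0256) passed. Over all genes the calls split 4190 to 4628, and 2659 to 6652 with the same total in every sample. Between BMP5 and BMP7 limma called 0 members, also at an unadjusted p under 0.05, and 0.0136% of all genes (2 genes, 0.00678% higher and 0.00678% lower, or 6 genes with the replicate block); edgeR and DESeq2 called 0 members. The 95% intervals of that difference were narrowest for Fth1, from -0.42 to 0.38, and widest for Cybrd1, from -1.50 to 1.14.

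Tgfb, a ligand of a separate receptor branch, raised 4 members and lowered 5 (background 56.7% of 12959 genes, 27.4% higher and 29.3% lower). Read as TPM, a scale that allows for gene length, the highest control levels were those of Fth1 (1970 ± 186 TPM, SD, n = 3), Mt2 (1918 ± 367) and Mt1 (1294 ± 219). Tfrc (134 ± 7.26), Slc11a2 (62.4 ± 14.9) and Heph (27.5 ± 2.52) followed, then Cybrd1 and Slc39a4 (16.6 ± 4.93), and last Slc30a10 (3.92 ± 0.96) and Slc40a1 (2.97 ± 0.73). Fth1 and Mt2, Cybrd1 and Slc39a4, and Slc30a10 and Slc40a1 did not differ beyond their spread.

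**Figure D5:**
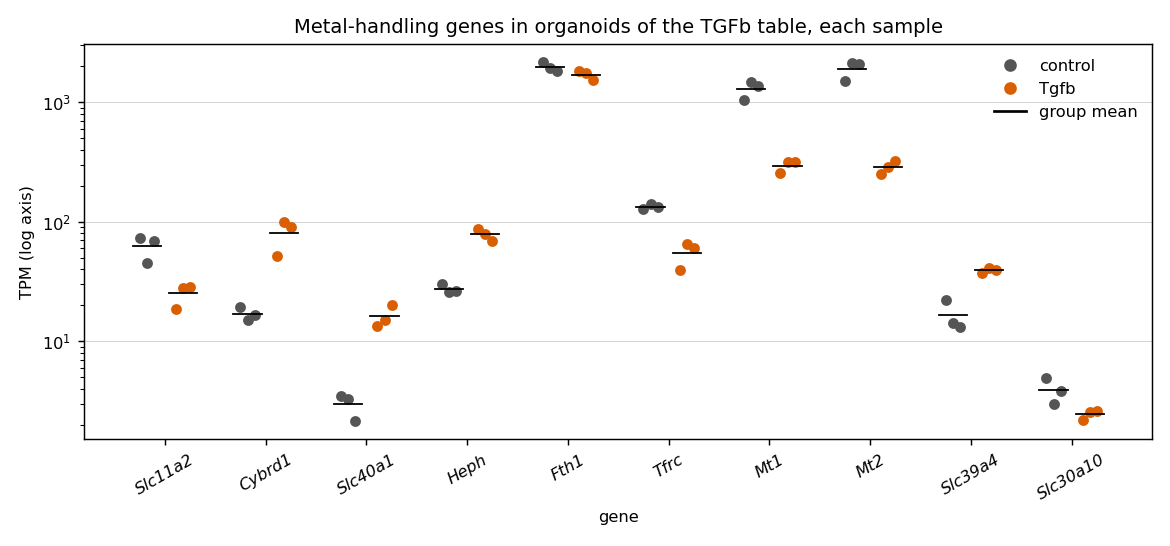
TPM (log axis) of the 10 metal-handling genes in each of the 3 control and 3 Tgfb samples, with group means as black lines. The groups do not overlap, but they are close for Slc30a10 and nearly touch for Fth1, at 1812 TPM in the lowest control and 1811 in the highest Tgfb sample. Of all genes tested, 56.7% were called with Tgfb, and the share of all genes whose groups do not overlap was not counted.

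The iron exporter Slc40a1, the reductase Cybrd1 and the oxidase Heph rose with Tgfb. Slc40a1 read 2.14, 3.32 and 3.46 TPM in controls and 20.3, 15.2 and 13.6 with Tgfb, a log2 fold change of 2.12 ± 0.20 (adjusted p = 0.000211). Cybrd1 read 16.5, 15.1 and 19.5 and then 89.8, 100.5 and 51.8 (2.13 ± 0.25, adjusted p = 0.00062). Heph read 26.4, 25.7 and 30.4 and then 69.7, 79.2 and 87.3 (1.48 ± 0.11, adjusted p = 8.06e-05). In each of these the Tgfb samples lay above every control. Slc39a4 rose from 13.3, 14.2 and 22.3 to 39.8, 41.0 and 37.2 (1.23 ± 0.19, adjusted p = 0.00184).

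Among the 10 members, the metallothioneins had the largest falls with Tgfb. Mt2 read 2105, 2152 and 1495 TPM in controls and 321, 287 and 250 with Tgfb, a log2 fold change of -2.73 ± 0.17 (adjusted p = 4.47e-05). Mt1 read 1363, 1470 and 1050 and then 314, 314 and 256 (-2.12 ± 0.15, adjusted p = 7.88e-05). Tfrc fell from 134, 141 and 127 to 60.5, 64.8 and 39.6 (-1.30 ± 0.19, adjusted p = 0.00139). None of these groups overlapped.

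Slc11a2, the importer, fell from 68.6, 45.4 and 73.2 to 28.7, 28.2 and 18.7 TPM (-1.27 ± 0.24, adjusted p = 0.0043). The exporter and the importer thus moved apart, and the log2 ratio of Slc40a1 to Slc11a2 was higher by 3.77 with no overlap (exact permutation p = 0.1, the smallest that 3 against 3 allow). The ratio of Tfrc to Fth1 was lower by -1.10 and that of Mt1 to Mt2 higher by 0.61, each with exact p = 0.1. Slc30a10 read 3.82, 3.01 and 4.93 and then 2.61, 2.57 and 2.18 (-0.50 ± 0.17, adjusted p = 0.0447). That call was lost on leaving out any of 5 libraries: control replicate III (0.114) or I (0.0986) or Tgfb replicate III (0.117), II (0.0811) or I (0.079). It was lost as well with a pseudocount of 5 (0.0515) and without a filter on low values (0.109). Fth1 read 1812, 1922 and 2175 and then 1529, 1744 and 1811 (-0.22, -0.48 to 0.05), so its groups nearly touched. The crypt stem list was lower with Tgfb in 4 of 4 markers, and the summed levels were 2434 to 2881 TPM in controls and 138 to 143 with Tgfb; their part was not tested.

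The members' pathways hold 76 other genes, of which 64 were tested in the BMP table and 62 in the TGFb table. With BMP2, 26 rose and 31 fell, beside 36.8% and 38.4% of all genes. With BMP4, 33 rose and 16 fell, beside 33.7% and 31.4%. With BMP5, 11 rose and 13 fell (16.5% and 9.87% of all genes), with BMP7 11 and 16 (19.2% and 13.2%), and with Tgfb 18 and 25 (27.4% and 29.3%); with BMP3 limma called 0, also at an unadjusted p under 0.05. Their median log2 fold change was -0.14 with BMP2 and 0.35 with BMP4, beside -0.03 and 0.04 over all genes. The copper list holds no member, and of its 11 genes 8 rose and none fell with BMP4 (33.7% and 31.4% of all genes), while 4 rose and 6 fell with BMP2 (36.8% and 38.4%). Of the 12 tested zinc importers other than Slc39a4, 4 rose and 4 fell with BMP4, and 5 rose and 5 fell with BMP2, against the same shares. Of the 8 tested zinc exporters other than Slc30a10, 6 rose and 2 fell with BMP4, and 3 rose and 3 fell with BMP2.

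Some of these genes moved the same way with several ligands. Ncoa4, which delivers ferritin for breakdown, rose with BMP2 (2.38 ± 0.19, adjusted p = 1.11e-09), BMP4 (2.97 ± 0.20, 7.77e-10), BMP5 (0.93 ± 0.20, 0.00203), BMP7 (1.34 ± 0.20, 4.92e-05) and under Tgfb (1.61 ± 0.08, 2.28e-05). Slc46a1, a proton-coupled folate transporter also studied as a heme carrier, rose under BMP4 (3.41 ± 0.20, 1.06e-10), BMP2 (1.69 ± 0.18, 8.63e-08), BMP7 (1.21 ± 0.20, 0.000109), BMP5 (0.91 ± 0.20, 0.00185) and Tgfb (2.11 ± 0.09, 1.28e-05). The copper pump Atp7a rose by 1.62 ± 0.15 with BMP2 (1.02e-08), 0.88 ± 0.16 with BMP4 (8.92e-05) and 0.89 ± 0.09 with Tgfb (0.000273). Its values with BMP5, 0.55 (0.016), and BMP7, 0.46 (0.0349), lost the call without BMP5 replicate III (0.116) or control replicate VI (0.0545), and without BMP7 replicate II (0.0697) or III (0.169) or control replicate II (0.0627), III (0.0511) or VI (0.102), respectively. The BMP7 value also lost it at the same total in every sample (0.11), after quantile normalization (0.057) and without a filter (0.0572).

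Others fell. The zinc transporter Slc39a8 fell with BMP4 (-3.09 ± 0.23, adjusted p = 2.28e-09), BMP7 (-2.01 ± 0.23, 2.77e-06), BMP5 (-1.50 ± 0.23, 8.75e-05) and Tgfb (-2.75 ± 0.07, 3.44e-06). The vesicular zinc exporter Slc30a2 fell with BMP2 (-5.99 ± 0.32, 6.36e-12), BMP7 (-2.02 ± 0.34, 0.000174) and Tgfb (-2.69 ± 0.14, 2.25e-05), and with BMP5 (-1.27 ± 0.34, 0.00983) unless BMP5 replicate III was left out (-0.93, 0.087). Slc39a5, a zinc importer, fell with BMP2 (-3.28 ± 0.27, 2.43e-09). The ferrireductase Steap3 fell with BMP4 (-2.83 ± 0.20, 1.14e-09), and Hmox1, which breaks down heme, rose with BMP2 (3.13 ± 0.56, 6.04e-05) and Tgfb (2.13 ± 0.15, 6.62e-05). The plasma-membrane zinc exporter Slc30a1 fell with BMP2 (-1.18 ± 0.29, 0.00105) and Tgfb (-1.01 ± 0.10, 0.000347). With BMP4 it rose (1.05 ± 0.31, 0.0061), a call lost at the same total in every sample (0.65, 0.0725). Under the replicate block it fell with BMP5 (-0.46, 0.00914) and BMP7 (-0.39, 0.0198), which without the block gave -0.43 and -0.35.

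Regulators of the system were also measured. Ireb2, which encodes an iron regulatory protein, gave 0.56 ± 0.07 with BMP2 (adjusted p = 3.32e-07) and 0.63 ± 0.07 with BMP4 (3.36e-07); the BMP2 value was 0.10 (0.215) at the same total in every sample and 0.03 (0.653) after quantile normalization. Its BMP5 value of 0.23 (0.0234) lost the call without BMP5 replicate II (0.0742) or III (0.0646) or control replicate III (0.06) or VI (0.0629), under both scalings (0.0696 and 0.102), without a filter (0.0664) and in a fit of only the groups compared (0.0515). Its BMP7 value of 0.25 (0.0101) lost it without BMP7 replicate II (0.0861) and under both scalings (0.0648 and 0.213). Its Tgfb value of 0.26 (0.0245) lost it without Tgfb replicate III (0.0681) or I (0.0535) or control replicate II (0.0626) or I (0.0653). Aco1, the other iron regulatory protein, rose with BMP4 (0.72 ± 0.10, 6.43e-06), and its BMP2 value was -0.11 (0.319), or -0.57 at the same total and -0.56 after quantile normalization, where it passed. Without BMP2 replicate VI it was -0.21 (0.0317), and its Tgfb value of -0.32 passed without control replicate III (0.0488) or Tgfb replicate III (0.0443) and after quantile normalization (0.0405), as did its BMP5 value of -0.18 (0.0248). Epas1, which encodes HIF-2 alpha, a hypoxia factor that acts on intestinal iron uptake genes, rose with BMP4 (1.56 ± 0.12, 3.08e-09) and BMP2 (0.60 ± 0.11, 6.92e-05; 0.14 at the same total, 0.272). Its Tgfb value of 0.57 (0.0499) lost the call without a filter (0.106) and without any of control replicate III (0.0695) or I (0.0635) or Tgfb replicate III (0.0721), II (0.101) or I (0.136). Mtf1, the zinc-sensing factor, gave 0.71 ± 0.15 with BMP2 (0.00027) and 0.64 ± 0.16 with BMP4 (0.00166), and 0.25 and 0.24 at the same total, where neither passed. Hamp, which encodes hepcidin, the hormone that removes ferroportin from the membrane, was at a mean of at most 0.78 normalized counts in any group of the BMP table and was listed at 0 in the TGFb table.

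For each member, the 2 genes with the most similar pattern were taken over the 20 samples of the BMP table among 11855 genes. These Pearson r values describe the pattern across ligands and share the samples' treatment. Slc40a1 and Slc30a10 were near each other (r = 0.954), beside Ctsa and Cyp2c55 (0.953 for Slc40a1 and 0.960 for Slc30a10). Cybrd1 was nearest to Egln3, a prolyl hydroxylase of hypoxia-inducible factors (0.961), and to Aldoa, a glycolytic enzyme (0.937). Tfrc was nearest to Hdac11 (0.984), Fth1 to Sult1b1 (0.989), Heph to Eps8l2 (0.981), Slc11a2 to Gm3336 (0.979) and Slc39a4 to B2m (0.962). Among the members, Slc11a2, Slc40a1, Fth1 and Slc30a10 had r of 0.874 to 0.954 with each other, while Tfrc had r of 0.415 with Fth1 and -0.330 with Heph.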

How the data were processed

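The organoid samples, 20 in the BMP table and 6 in the TGFb table, were profiled as mRNA libraries. Trim Galore, Salmon, DESeq2 and GRCm39 are named in the submitters' processing notes, without versions. In the BMP table the authors deposited a signal, normalized counts, which the values show to be counts divided by 1 size factor per sample, with 3 significant digits. Whole reads were recovered for 100% of 180721 low values (20 reads or fewer). The tolerance was 0.02 of the read count, so it was wide near 20 reads and the check was strict only for the lowest values. Depth was 21.4 to 24.8 M reads per sample, with 1 read worth 0.826 to 1.28 normalized counts. The TGFb table was named by the authors as normalized counts but was read here as TPM, so its depth is unknown. Tests stayed within a table. Groups came from the labels, and 0 columns were left unmapped.

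Differences were tested in limma 3.58.1 (R 4.3.3) with an intensity trend on log2(value + 1), for genes with a mean of at least 10 normalized counts (14746) or 1 TPM (12959). The 6 groups of the BMP table shared 1 fit. Tests were two-sided, with Benjamini-Hochberg adjustment over all genes tested; fold changes on the log2(value + 1) scale understate those of low genes. The script was tested on simulated data. The alternatives were pseudocounts, filters, scaling, the replicate number as a block, fits of only the groups compared, edgeR 4.0.16 and DESeq2 1.42.0 on recovered reads, and leaving out each sample. The numbers in the titles paired the samples of BMP3, BMP4, BMP5 and BMP7 with the controls, where same-numbered samples deviated together in every pair (correlations 0.158 to 0.553), and BMP4 and BMP5 with BMP7 (0.150 to 0.489); this was read from the data, and the labels give no shared source. BMP2 and Tgfb did not meet this in every pair. Against the controls, replicate III alone of the BMP2 samples fell short (0.018, beside 0.195 to 0.421 for the others). Ratios were compared by exact permutation tests.

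The members and the lists were chosen with earlier results of these data known, and the search for iron-responsive elements and the count of elements upstream of the TATAAA boxes were added later. All members were named; of the other pathway genes, the 2 highest and 2 lowest per comparison against control (mean of at least 50 normalized counts or 5 TPM) and 10 role genes. The labels mention sequencing runs without assigning samples, so a run effect was not tested.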

Additional observations from a re-analysis of the deposited data

Results flagged for a closer look

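Control replicate III stood apart from the other controls for both metallothioneins: Mt1 read 4120 normalized counts against 5700 to 5920, and Mt2 read 3580 against 5390 to 5710. These were 2 of 26 groups of 4 samples examined for a single distant sample, and chance gives about 1 in 20 (5%). Replicate III was also the lowest for both genes with BMP3, BMP4, BMP5 and BMP7, and the cause was not tested.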

How the results depend on the processing

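None of the 1638 values of the members under alternatives reversed a call: 1534 kept direction and call, 60 lost and 44 gained it, and 46 values that never passed changed sign. Of 1070 values of the other named genes, 1020 kept, 39 lost and 11 gained the call; of 260 for the F-test, 253 and 7 lost. All 144 ratio values stayed within 1 SD of the original, taking the larger SD of the ligand and control groups, which is a wide limit for some ratios. Of these values 1 changed sign: Slc40a1 to Slc11a2 with BMP3 was 0.28, and -0.06 without BMP3 replicate IV. The genes called with BMP3 were 1 with DESeq2, 6 in a fit of only the groups compared, and 0 to 1 on leaving out samples. For BMP5 against BMP7 they were 23 with DESeq2, 4 with edgeR, with a pseudocount of 5 and without a filter, 0 with a pseudocount of 0.1 and with a mean of at least 50, 1 at the same total and after quantile normalization, and 6 with the replicate block; leaving out samples gave 0 to 9. With BMP5, 3884 genes were called in the main fit, 2517 to 4301 on leaving out samples and 3419 to 5738 under the other alternatives. With BMP7 these counts were 4773, 3518 to 4674 and 4330 to 6689. The number of genes tested changes with the filter. The members called with BMP5 were 5 with the replicate block and in a fit of only the groups compared, 4 after quantile normalization and 1 to 4 on leaving out samples. For BMP7 they were 1 to 3 on leaving out samples and 3 to 6 under the other alternatives. The lowest of these, 3, came without a filter. Cybrd1 was gained with the replicate block and Slc40a1 in a fit of only the groups compared. Where the numbers pair, the block changed no member call beside those given in the text. For BMP2 and Tgfb not every sample correlated best with the control of its own number (lowest same-number correlations 0.018 and 0.004). BMP2 replicates II (0.195), VI (0.308) and IV (0.421) did, and BMP2 replicate III (0.018) did not. In comparisons with BMP2 or Tgfb, the block also called Cybrd1 (-0.63) and Mt2 (-0.97) for BMP2 against BMP4. It called Cybrd1 (0.85) and Heph (0.21) for BMP2 against BMP7, and Fth1 (-0.22) with Tgfb, and lost Slc30a10 with Tgfb (-0.50). Members called ranged over the alternatives from 8 to 10 with BMP2, 7 to 9 with BMP4 and 7 to 9 with Tgfb. Over all genes the ranges were 9538 to 12759 with BMP2, 8483 to 10582 with BMP4 and 5065 to 7855 with Tgfb. Where the text gives no cause, the cause was not tested. The lowest member value in the BMP table was 63.5 normalized counts, and depth is unknown for the TGFb table.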

Other observations

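The third table holds 1 sample of freshly isolated duodenal mesenchymal cells from PdgfraH2BeGFP mice and 1 of such cells after immortalisation and sorting. Its values were also read as TPM and were scaled separately from the organoid tables. With 1 sample each there is no test. Slc40a1, the iron exporter, read 39.1 TPM in fresh and 4.82 in immortalised cells, Tfrc 16.6 and 61.4, Slc11a2 28.3 and 43.1, and Fth1 1682 and 1696. Mt1 read 135 and 38.1 TPM and Mt2 110 and 5.33. Cybrd1 (0.903 and 0.0101), Heph (1.21 and 0.118) and Slc39a4 (0.556 and listed at 0) were low, and Slc30a10 was listed at 0 in both.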
